A study of Oryza sativa Japonica Group with 12 samples.

Results

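The change described here took place in panicles of the rice fst mutant between the stage before flowering (BF) and 5 days after pollination (DAP), an interval in which wild-type (WT) panicles begin to fill seeds and seed development fails in fst, a female-sterile mutant. Of the 12 Affymetrix Rice GeneChip arrays in the study, 6 measured it: 3 of fst at 5 DAP (M5D) and 3 of fst before flowering (MBF). The 3 arrays of WT at 5 DAP (W5D) and the 3 of WT before flowering (WBF) served to ask where the change in fst differed from that in WT. All plants were japonica rice grown in a greenhouse in natural daylight without treatment. The mutant is a single spontaneous line that arose in the breeding line Junambyeo and carries a short deletion in the MADS-box gene FST (OsMADS29). RNA came from whole panicles pooled over several plants, so the error terms measure the spread between 3 such pools per group. The arrays are titled with the earlier name of the mutant, cyn. The description field of the fst arrays calls them wild lines, whereas their titles, source names and genotype fields name the mutant, and these were followed.

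Before flowering, a rice panicle carries closed spikelets whose anthers hold nearly mature pollen. At flowering the anthers open and empty, the pollen tube grows to the ovule, and fertilization starts an embryo and an endosperm, which the maternal tissues feed with sucrose and amino acids and which stores starch, glutelins and prolamins. FST belongs to the B_sister MADS-box genes, which act in the ovule and the seed coat of plants, and a mutant without FST function is female sterile. The tissues of the hull, the pistil and the panicle axis remain in both genotypes after flowering.

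RMA signals (background-corrected, normalized intensities on a linear scale) ran from 3.0 to 24475 over the 12 arrays, and the median signal of the 6 fst arrays lay between 30.8 and 33.6. Correlations of log2 signals were 0.990 to 0.994 among the M5D arrays, 0.993 to 0.995 among the MBF arrays and 0.934 to 0.945 between the stages. Changes are given as the log2 of M5D over MBF with the standard error (SE) and the Benjamini-Hochberg adjusted p of limma over 57258 probe sets, with a threshold of 0.05. An exact permutation test of 3 arrays against 3 cannot give a p below 0.1, so none is given for a single gene. In counts and lists, genes are represented by the probe set with the highest mean log2 signal. The largest rises, falls and differences were picked among probe sets with 1 gene and a name or description. They also had to have M5D and MBF arrays that did not overlap and a mean signal of at least 100 in M5D or MBF. Descriptions came from the study's own lists of genes changed in fst on these arrays, so genes without a name entered only through those lists. For SAM2 and LOC4346741 the probe set picked was a dimmer one. Beyond the naming rule given in the methods, some genes of a list or family are named because of their values.

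The stage change in fst was broad, and the falls were deeper than the rises. Of the 57258 probe sets, 8912 (15.6%) were higher and 6385 (11.2%) lower in M5D than in MBF. At least a 4-fold change was found for 704 probe sets that rose (1.23%) and 1200 that fell (2.1%). By the probe set that stands for each gene, 466 genes (2.6%) rose and 709 (3.96%) fell at least 4-fold. At 10-fold the counts were 139 that rose and 673 that fell, and at 100-fold 4 and 194. Of the 1200 probe sets that fell at least 4-fold, 755 (62.9%) ended with a mean M5D signal under the overall median of 32.2, while 258 (36.6%) of the 704 that rose began with a mean MBF signal under it. Signals near the floor of the array give folds that vary with how background was subtracted, and no detection calls were used. Counted with 1 probe set for each of 17905 genes, 28.8% were higher and 17.4% lower, which is the background for the gene lists below.

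The largest falls were in genes of pollen and of the actin and calcium machinery. EXPB10, a beta-expansin that loosens cell walls, gave signals of 10.7, 12.1 and 13.4 in M5D and of 10210.5, 10312 and 7891 in MBF. All 3 MBF arrays were among the brightest signals of the chip and all 3 M5D arrays among the dim ones, so the groups lay far apart (log2 change -9.61, SE 0.16, adjusted p = 1.4e-13). EXPB9, another beta-expansin, gave 81.5, 45.1 and 105 in M5D and 14022, 14782 and 15862 in MBF (-7.67, SE 0.26, adjusted p = 7.31e-11). EXPB9 and EXPB10 make up the list of pollen wall and tube genes that could be matched, and their summed signal was 57.2 to 118 in M5D and 23753 to 25094 in MBF. In WT the sum was 63.7 to 111 in W5D and 21455 to 24958 in WBF, and neither gene differed between the genotypes past the test. In RNA of whole panicles, fewer cells of a type and less RNA per cell cannot be told apart.

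Actin-depolymerizing factors (ADF), which sever actin filaments, were split between large falls and a rise. ADF9 gave 10.3, 7.16 and 11.2 in M5D and 4839.7, 4606 and 4755 in MBF (log2 change -8.98, SE 0.15, adjusted p = 1.4e-13), and ADF6 gave 19.2, 16.9 and 22.7 in M5D and 4598, 4707 and 4401 in MBF (-7.88, SE 0.19). ADF-1 fell by 6.82. The arrays of the stages did not overlap for any of these 3 genes, which was a condition of choosing ADF9 and ADF6. Their falls in WT were of much the same size, at -9.02, -7.60 and -6.70. ADF-5 rose instead, with 4889, 5271 and 5134 in M5D and 1547, 1424 and 1867 in MBF (1.67, SE 0.12). Among the 9 genes with an ADF name, 4 were lower and 2 higher in M5D.

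Calcium-dependent protein kinases and calcineurin B-like-interacting protein kinases (CIPK), which relay calcium signals, included some of the deepest falls. CPK22 gave 18.1, 11.1 and 23.3 in M5D and 3002, 3108 and 3357 in MBF (log2 change -7.56, SE 0.23, adjusted p = 2.34e-11). CPK29 gave 32, 22 and 45.2 in M5D and 5331, 4791 and 6097 in MBF (-7.41, SE 0.22). Of 20 CPK genes, 6 fell and 4 rose, and 5 fell at least 4-fold: CPK2 by 7.39, CPK6 by 6.19 and CPK21 by 5.09 besides CPK22 and CPK29. CPK21 stood apart from WT, where its change was -2.15 (difference -2.95, adjusted p = 0.000877): it gave 42.7, 23.3 and 26.4 in M5D and 729, 959.9 and 1493 in MBF. CIPK30, with 9.54, 10.1 and 9.04 in M5D and 1387, 1278 and 1553 in MBF, fell by 7.19, CIPK5 by 5.64 and CIPK20 by 4.77. Of 24 CIPK genes in all, 6 fell and 6 rose, where 17.4% of all genes fell and 28.8% rose. CML32, a calmodulin-like protein, fell by 6.77.

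Other enzymes and transporters fell as deeply. FBA2 fell to 11, 7.26 and 15.4 in M5D, against 6254, 5616 and 4661 in MBF (log2 change -9.0, SE 0.24, adjusted p = 6.27e-12). The chitinase gene Cht7 fell to 26.7, 18.6 and 25.9, against 10875, 10921 and 12021 in MBF (-8.91, SE 0.17), and the alpha-expansin EXPA32 fell by 7.61. SWEET5, a sugar efflux carrier, gave 58.2, 38.3 and 74.6 in M5D and 7939, 6889.9 and 8664 in MBF (-7.15, SE 0.20, adjusted p = 1.33e-11), and MST5, a monosaccharide transporter, gave 5.4, 9.29 and 6.97 in M5D and 384, 413 and 281 in MBF (-5.65, SE 0.23). None of these genes had overlapping arrays, which was a condition of choosing FBA2, Cht7 and EXPA32 among the largest falls. None differed from its change in WT past the test. The yellow stripe-like (YSL) transporters, which move metal chelates, had 6 falls of at least 4-fold among 15 genes, led by YSL7 (-6.59) and YSL4 (-6.45). Rises were called for 5 of the 15, among them YSL12, which gave 1773, 1766 and 1752 in M5D and 97.5, 128 and 249 in MBF (3.6, SE 0.26).

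**Figure D1:**
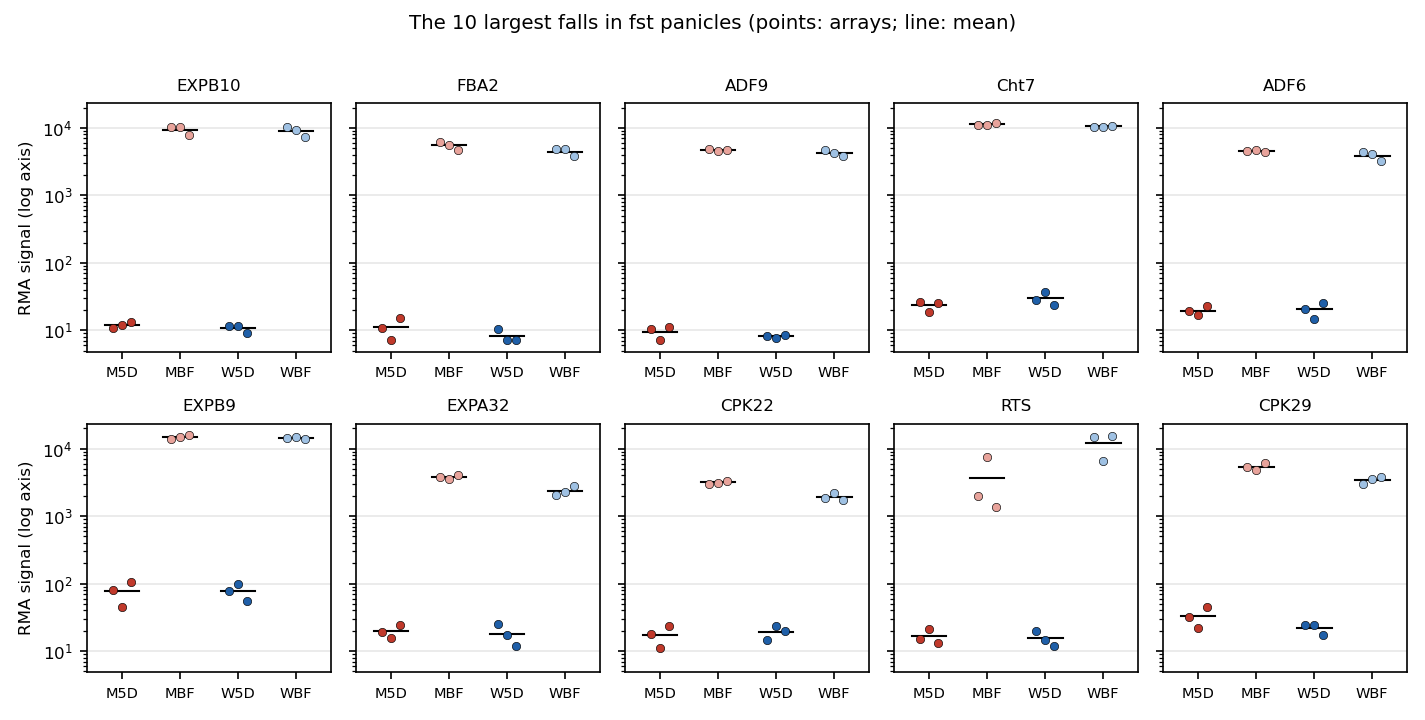
RMA signal (log axis) of the 10 genes with the largest falls in fst, for the groups M5D, MBF, W5D and WBF; each point is an array and each line the mean of 3 arrays. All M5D points of EXPB10 lie between 10.7 and 13.4, far below its MBF points, and the MBF points of RTS spread from 1371 to 7607.

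Genes of the anther and its tapetum, the cell layer that nourishes pollen, mostly fell. Of 13 measured genes, the test called 7 lower and 1 higher and left 5 uncalled, with a median log2 change of -1.2, against 0.10 over all genes. RTS, which is needed for pollen development, gave 15, 21.2 and 13.1 in M5D and 2008, 7607 and 1371 in MBF (-7.42, SE 0.51, adjusted p = 1.34e-07). The MBF arrays disagreed over it: array 2 was the highest, as it was for OsC6, a lipid transfer protein of the pollen coat, which gave 13.6, 19.6 and 19.8 in M5D and 151, 463 and 162 in MBF (-3.69, SE 0.54). RAFTIN1 fell by 3.95 and BHLH142 by 1.88. The summed signal of the 13 genes was 4432 to 5374 in M5D, and 4416, 10491 and 3675 in MBF. In WT the sum was 2301 to 3010 in W5D, and 18845, 9435 and 19633 in WBF. The sum of the M5D arrays came mostly from AP25, an aspartic protease gene counted in this list, which gave 4408, 3545 and 3647 in M5D and 159, 241 and 181 in MBF (4.33, SE 0.17, adjusted p = 2.53e-10).

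The tapetal regulators TDR and EAT1, both basic helix-loop-helix factors, fell less in fst than in WT. TDR gave 13, 17 and 15.4 in M5D and 119, 99.1 and 106 in MBF, a change of -2.84 against -4.36 in WT (difference 1.52, SE 0.19, adjusted p = 0.000593). EAT1 gave 19.6, 22.3 and 19.4 in M5D and 60, 45.4 and 37.8 in MBF, a change of -1.2 against -2.69 (difference 1.49, SE 0.22, adjusted p = 0.00201). For TDR the means at 5 DAP were close, at 15.1 in M5D and 13.3 in W5D, and those before flowering were apart, at 108 in MBF and 271 in WBF. Both calls held with each of the 12 arrays left out in turn. GAMYB, a regulator of anther genes under gibberellin, gave 465, 406 and 538 in M5D and 1174, 1119.9 and 1082 in MBF (-1.27, SE 0.13), close to its change of -1.31 in WT.

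The rises were led by a peroxidase, germin-like proteins and wall-loosening proteins. PRX112, a class III peroxidase, gave 6767, 8818 and 8375 in M5D and 26, 25.3 and 23.7 in MBF (log2 change 8.31, SE 0.21, adjusted p = 3.92e-12), the largest rise of any named gene. The arrays of each stage were close to each other and the stages were far apart. The rise in WT was 7.15, and the difference of 1.16 (adjusted p = 0.0351) lost its call when any of 9 of the 12 arrays was left out, with an adjusted p of up to 0.0731. Another probe set annotated to PRX112 gave 326, 299 and 290 in M5D and 202, 253 and 271 in MBF. Its change did not pass the test (0.34, adjusted p = 0.0522), so the large rise rests on a single probe set. ASP1, an aspartic protease gene, gave 7853, 6703 and 7598 in M5D and 112, 109.6 and 156 in MBF (5.89, SE 0.16), and the beta-expansin EXPB7 gave 3015, 3722 and 3003 in M5D and 108, 73.8 and 78.8 in MBF (5.24, SE 0.15). Neither differed from WT, where ASP1 rose by 5.62 and EXPB7 by 5.18. BHLH004 (4.90), a probe set for a receptor-like kinase (LOC4337274, 4.94) and one for a proline-rich protein (LOC4348122, 4.35, SE 0.73) completed the 10 largest rises with AP25, EXLA4, GER2 and GER3.

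Germin-like proteins, which lie in the cell wall and in some cases produce hydrogen peroxide, rose in 6 of 9 measured genes and fell in none, with a median change of 1.27. GER1, GER2 and GER3, which lie next to each other in the rice annotation, changed by the most. GER3 gave 17394, 18515 and 18954 in M5D and 134, 243 and 410.1 in MBF (log2 change 6.27, SE 0.28, adjusted p = 1.58e-09). GER2 gave 389.6, 595 and 673 in M5D and 21.4, 33 and 30.1 in MBF (4.28, SE 0.31), and GER1 gave 121, 168 and 287 in M5D and 7.49, 10.3 and 12.7 in MBF (4.18, SE 0.33). The rise was larger in fst than in WT for all 3, by 2.37 (adjusted p = 0.00428) for GER3, 2.73 (adjusted p = 0.00335) for GER2 and 2.11 (adjusted p = 0.0184) for GER1, and each call held with any 1 array left out. The levels behind these differences were not the same. For GER3 the 5 DAP means were close, at 18288 in M5D and 16635 in W5D, and the means before flowering were apart, at 262 in MBF and 1124 in WBF. For GER2 it was the later stage that differed, with means of 553 in M5D, 28.2 in MBF, 95.7 in W5D and 32.6 in WBF. Cross-hybridization among the members of this family was not tested.

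**Figure D2:**
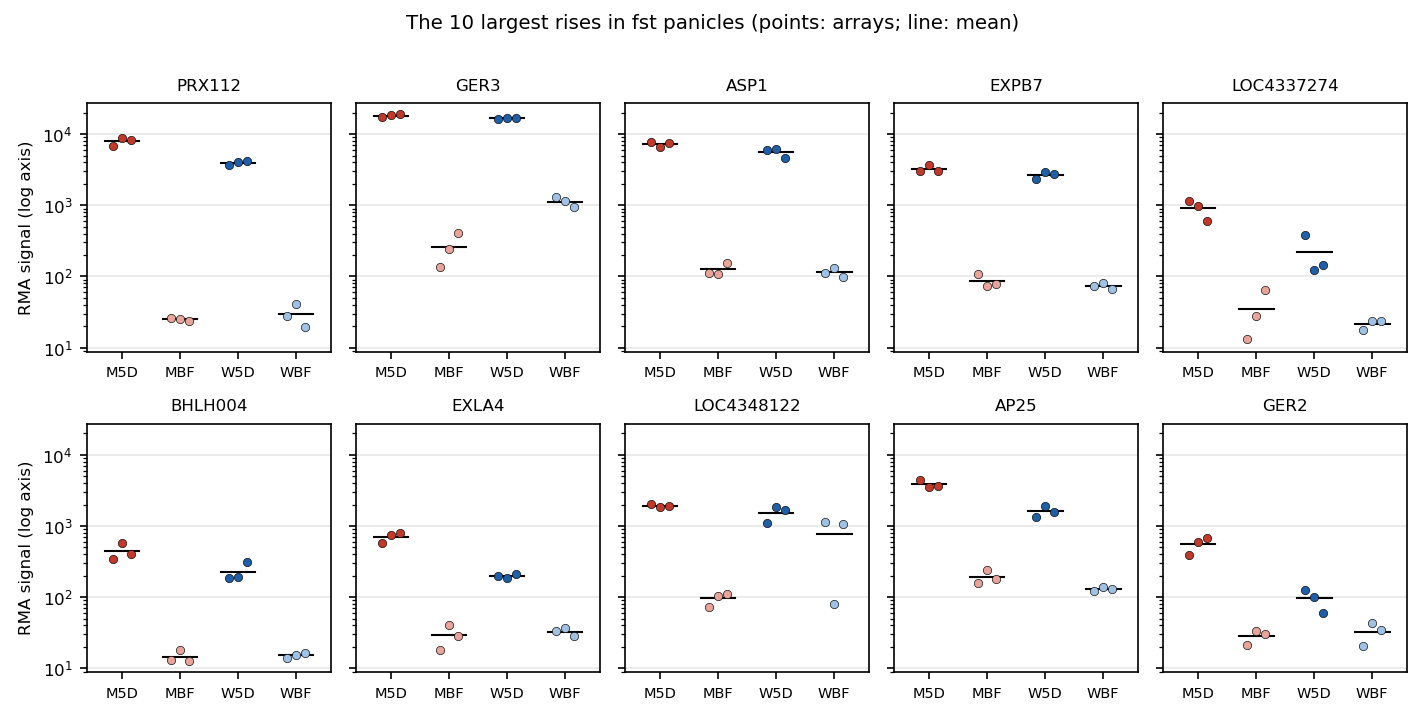
RMA signal (log axis) of the 10 genes with the largest rises in fst, for the groups M5D, MBF, W5D and WBF; each point is an array and each line the mean of 3 arrays. All M5D points lie above all MBF points in each panel, which was a condition of the choice. PRX112 spans 6767 to 8818 in M5D and 23.7 to 26 in MBF.

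Genes that specify ovules rose. Of the 6 measured B_sister and ovule identity MADS genes, 5 were higher and none lower in M5D (median log2 change 1.51, WT 1.03). FST itself gave 1378, 1058 and 1339.7 in M5D and 235, 211 and 236 in MBF (2.46, SE 0.12, adjusted p = 5.17e-09). Its rise was smaller than the 3.55 of WT (difference -1.09, SE 0.18, adjusted p = 0.00326), with means of 1351 in W5D and 115 in WBF. The deletion leaves the fst transcript in place, so this probe set does not check the genotype of the arrays. The ovule identity genes OsMADS13 and OsMADS21 also rose: OsMADS21 gave 698, 731 and 797 in M5D and 104, 83.3 and 112 in MBF (2.90, SE 0.18), and OsMADS13 gave 1978, 2129 and 1836 in M5D and 508, 527 and 631 in MBF (1.84, SE 0.11). Their changes in WT were 2.94 and 1.28 and did not differ past the test. OsMADS58, a C-class gene of the pistil and the floral meristem, gave 8213, 9576 and 7853 in M5D and 3719, 3450.1 and 4075 in MBF (1.19, SE 0.11). OsMADS30, the other B_sister gene measured, rose by 0.71 (SE 0.16) at very low signals, of 6.51 to 8.69 in M5D and 4.08 to 5.33 in MBF. OsMADS3, the second C-class gene, did not pass the test (0.28, adjusted p = 0.0798), but its change lay above the -0.44 of WT (difference 0.73, adjusted p = 0.0168).

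Among 14 MADS genes of the other floral organs (A, B and E classes), 2 rose and 6 fell, with a median of -0.11. The B-class genes, which specify stamens and lodicules, fell: OsMADS16 gave 1277, 1393 and 1159 in M5D and 6234, 5635 and 5532 in MBF (log2 change -2.19, SE 0.14, adjusted p = 7.5e-08), OsMADS4 fell by 1.47 and OsMADS2 by 1.30. The E-class genes OsMADS8 and OsMADS7, which act in most floral whorls, rose: OsMADS8 gave 9803, 10225 and 10422 in M5D and 4851, 5231 and 5599 in MBF (0.96, SE 0.10), and OsMADS7 rose by 0.47. The summed signal of the 14 genes stayed high in both stages, at 45869 to 47645 in M5D and 52063 to 53839 in MBF, so the markers of floral tissue were present in all fst arrays.

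Genes of seed filling showed no rise as a group in fst. Of 11 seed storage protein genes, none was higher and 1 lower in M5D, with a median of 0.08, whereas 9 rose in WT with a median of 6.52, and for 8 the fst change lay below that of WT. GLUB-5, a glutelin gene, gave 14, 11.5 and 12.3 in M5D and 12.6, 11.5 and 8.3 in MBF (log2 change 0.24, adjusted p = 0.596), against a rise of 8.88 in WT, and GLUA-3 gave 5.51, 5 and 5.23 in M5D and 5.1, 5.04 and 5.88 in MBF (-0.02, adjusted p = 0.974), against 8.18. These signals are among the lowest of the arrays, so a change in fst beneath them was not detectable. The prolamin gene PROLM25 (17.8, 21.3 and 22.5 in M5D, and 23.1, 20.9 and 16.8 in MBF) and the seed allergen gene RA14 (35.8, 22.5 and 27.5 in M5D, and 41.1, 19.1 and 23.7 in MBF) had overlapping stages too. The 1 fall was that of GLUA-2 (-2.40, SE 0.17), which fell in WT as well (-1.78), and a second probe set annotated to GLUA-2 gave 0.66 in fst (adjusted p = 0.196) and 6.69 in WT. The summed signal of the 11 genes was 1990 to 2207 in M5D and 2553 to 2836 in MBF, most of it from GLB, and 9197 to 25215 in W5D. The study named storage genes from these same arrays, so the list is not independent of them.

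Starch genes moved in both directions, with 2 of 9 higher and 3 lower. Wx, the granule-bound starch synthase that makes amylose, fell to 309, 20.8 and 14.4 in M5D, against 1142, 1052 and 560.4 in MBF (log2 change -4.28, SE 0.84, adjusted p = 0.00174). The stages did not overlap, but M5D array 1 lay far above M5D arrays 2 and 3. Without that array the change was -5.66, and with array weights -2.97. In WT the change was 1.72 (adjusted p = 0.148), and the difference of -6.0 (SE 1.19, adjusted p = 0.0109) held with any 1 array left out. Of the 5 other probe sets annotated to Wx, 3 fell as well, by 2.09, 1.82 and 3.04, and 2 with low signals did not pass the test. In WT those 3 rose past the test, by 2.53, 2.49 and 2.02. The starch synthases SS1 (1661, 1717 and 2135 in M5D, and 816, 812 and 765 in MBF) and SS2 rose by 1.2 and 0.80, and the disproportionating enzymes DPE2 and DPE1, which act on maltose and short glucans, fell by 1.16 and 0.84. SSII-3, the starch synthase active in endosperm, gave 75.1, 54 and 37.1 in M5D and 64.7, 76.7 and 69.2 in MBF (-0.40, adjusted p = 0.378), against a rise of 4.01 in WT (adjusted p of the difference 5.91e-05).

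The 5 measured sucrose synthase genes, whose enzymes open sucrose to metabolism, rose in fst, 1 of them by less and 2 by more than in WT. SUS3 gave 1618, 1151 and 1301 in M5D and 213, 202 and 154 in MBF (log2 change 2.84, SE 0.22, adjusted p = 4.73e-07), and in WT it rose by 4.88 (difference -2.04, SE 0.31, adjusted p = 0.00244). SUS1 gave 2068, 1908 and 2059 in M5D and 603, 495 and 323 in MBF (2.13, SE 0.24), close to the 2.02 of WT. SUS5 and SUS6, at much lower signals, rose by 1.62 and 1.49 in fst, against -0.08 and 0.01 in WT (adjusted p of the difference 0.0201 and 0.0244). The call of that difference was lost for SUS5 without MBF array 1, W5D array 2 or WBF array 1, and for SUS6 without MBF array 1, MBF array 2, W5D array 2 or W5D array 3. Over sucrose cleavage as a whole, 7 of 13 genes rose and 3 fell, and the falls included the neutral invertase gene NIN3 (-1.23). SWEET11, a sugar efflux carrier of the developing caryopsis, rose as in WT, with 7506, 7481 and 9040.3 in M5D and 1695, 1395 and 2144 in MBF (2.22, SE 0.16, WT 2.31), and so did the hexose transporter MST3 (1.98, WT 2.20). Of 18 sugar transporter genes in all, 5 rose and 5 fell (27.8% each), against 28.8% and 17.4% of all genes. LTP-2, a lipid transfer protein, rose to 389, 477 and 466 in M5D, against 125, 116 and 105 in MBF (1.95, SE 0.27), by less than in WT (4.52, adjusted p of the difference 0.00181).

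The 3 M5D pools were not alike in some of the genes that rose in WT. The sums of the storage list were close in M5D arrays 1, 2 and 3, at 2207, 1990 and 2058, and those of the starch list were 10224, 9978 and 12244. NFYB1, a nuclear factor Y subunit of the endosperm, gave 168, 17.7 and 13.9 in M5D and 16.7, 14.2 and 13.5 in MBF (log2 change 1.23, SE 0.69, adjusted p = 0.234), so that only M5D array 1 rose above the range of MBF by more than a few units. There were 351 probe sets with at least a 4-fold rise in WT and a smaller change in fst by the test of the difference. Array 1 was the highest M5D array for 192 of them, array 2 for 99 and array 3 for 60. The same count over all probe sets was not made, and these 351 were picked by a test that used the same M5D values. Their median signals were 41.4, 25.6 and 22.5 in M5D arrays 1, 2 and 3, and 17.2 to 18.7 over the MBF arrays. The tonoplast water channel gene OsTIP3;1, which is abundant in seeds, was also highest in M5D array 1, with 91.4, 42.3 and 44.4 in M5D and 12.4, 14.5 and 13 in MBF (2.07, SE 0.38, adjusted p = 0.000968), against a rise of 6.96 in WT (difference -4.90, adjusted p = 0.00022). No label separates the M5D samples.

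Of 8 genes with an MCM name, 6 fell in fst and none rose. The 6 subunits of the MCM helicase, which opens DNA at replication origins, were all lower in M5D, by 1.55 (MCM3), 1.44 (OsMCM6), 1.36 (MCM7), 1.19 (MCM4), 1.15 (MCM2) and 1.12 (MCM5) on the log2 scale, with changes of -0.27 to 0.31 in WT, none past the test there. MCM3 gave 159, 88 and 142 in M5D and 394, 342 and 367 in MBF (SE 0.21, adjusted p = 6.98e-05). MCM4 gave 93.7, 52.3 and 67.8 in M5D and 146, 152 and 179 in MBF. The stages did not overlap for either gene, and M5D array 2 was the lowest for all 6 subunits. The difference from WT passed the test for 5 of the 6 (MCM5 adjusted p = 0.0733), and it held with any 1 array left out for MCM2, MCM3 and MCM4 (-1.46, -1.44 and -1.47), but not for OsMCM6 and MCM7. PCNA, the sliding clamp of DNA polymerase, gave 998, 852 and 792 in M5D and 1069, 1014 and 955 in MBF (-0.21, adjusted p = 0.21), against a rise of 0.74 in WT (difference -0.95, adjusted p = 0.0038). Over the 47 genes of the cell cycle, DNA replication and histones, 10 rose and 16 fell in fst (median -0.15, WT 0.11), and 11 changes lay below and 2 above those of WT, against 4.19% and 6.37% of all genes. Besides OsMCM6 and MCM7, the calls below WT of CDC2Os-3, CYCA2-1 and CYCA3-2 were lost in 7, 10 and 4 of the 12 fits that left out 1 array. The call of CDKG-1 above WT was lost in 6. Some parts of the cell cycle rose: the D-type cyclin CYCD2-2 gave 194, 181 and 267 in M5D and 35.8, 56.5 and 56.4 in MBF (2.12, SE 0.19), and KRP6, an inhibitor of cyclin-dependent kinases, rose by 1.65.

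Heat shock proteins, chaperones that bind unfolded proteins, were mostly lower in M5D, and several fell further than in WT. Of 43 genes of this list, which also holds heat shock factors, 20 fell and 9 rose, with a median of -0.23, against -0.15 in WT. HSP24.1 gave 48.7, 55 and 63.3 in M5D and 780.5, 656 and 567 in MBF (log2 change -3.58, SE 0.18, adjusted p = 5.79e-09), against -1.92 in WT (difference -1.66, adjusted p = 0.00262). HSP17.9A gave 1044, 948 and 845 in M5D and 6341, 5913 and 4945 in MBF (-2.60, SE 0.14), against -1.01 (difference -1.58, adjusted p = 0.0006), and HSP18.0 fell by 2.36, against -1.10 (difference -1.26, adjusted p = 0.000918). By these probe sets, no M5D array of the 3 genes reached the MBF range. The other probe sets annotated to HSP18.0, at lower signals, did not pass the test in fst (-0.20 and 0.12). Their differences from WT (-0.20 and 0.20) did not pass it either. HSP23.2 ran in opposite directions in the genotypes, with 75.6, 76.5 and 78 in M5D and 379.8, 169 and 497 in MBF (-2.05, SE 0.32, adjusted p = 0.000252), beside a change of 0.97 in WT (difference -3.02, adjusted p = 0.00185). Of 20 genes named as heat shock factors, which switch on heat shock genes, 9 rose and 4 fell. Among the largest rises, HSF05 gave 121, 135 and 112 in M5D and 25.7, 29.2 and 31.6 in MBF (2.09, SE 0.13), more than in WT (0.47, adjusted p of the difference 0.000276), HSF01 rose by 2.31 and HSF23 by 1.76. Of 8 dehydrin, late embryogenesis and oil body genes 4 fell and none rose, with RAB16D at 69.3, 70.5 and 59.6 in M5D and 393, 382 and 403 in MBF (-2.57, SE 0.14, WT -1.48, adjusted p of the difference 0.00788).

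**Figure D3:**
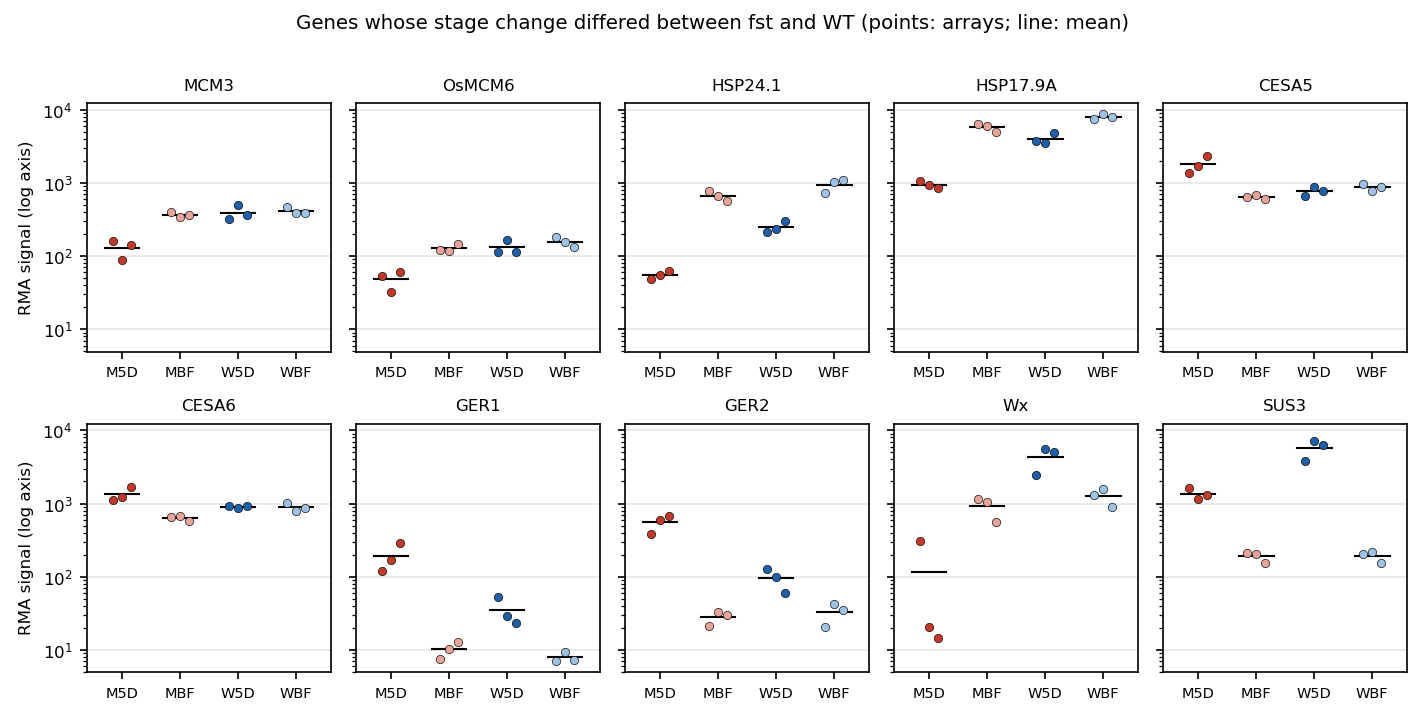
RMA signal (log axis) of 10 genes whose stage change differed between fst and WT by the test of the difference, for the groups M5D, MBF, W5D and WBF; each point is an array and each line the mean of 3 arrays. MCM3 and HSP24.1 are lowest in M5D, CESA5 and GER2 highest in M5D, and the M5D points of Wx are apart from each other, at 309, 20.8 and 14.4.

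Of 9 cellulose synthase genes, 7 rose in fst and none fell. Of 28 genes for secondary walls and lignin, 16 were higher and 3 lower (median log2 change 0.69, WT 0.13). Of their changes, 7 lay above those of WT and 1 below, against 6.37% and 4.19% of all genes. This list also holds the CESA genes of primary walls. CESA1, CESA3, CESA5, CESA6 and CESA8 were among the 7 above WT. The calls of CAD8C and BC1L6 above WT were lost in 9 and 8 of the 12 fits that left out 1 array. CESA7, CESA4 and CESA9, the subunits of secondary walls, rose by 1.94, 1.77 and 1.73, with CESA7 at 4055, 3542 and 2498 in M5D and 1064, 983 and 609 in MBF, and these rises did not differ from those of WT past the test. BRITTLE CULM1 (BC1), which acts in cellulose assembly, rose by 1.97, as in WT (1.81). Several subunits of primary walls lay above WT. CESA5 gave 1344, 1684 and 2334 in M5D and 646, 672 and 592 in MBF (1.45, SE 0.17, adjusted p = 2.78e-05), against -0.18 in WT (difference 1.64, adjusted p = 0.00209). CESA6 gave 1108, 1243 and 1673 in M5D and 664, 681 and 583 in MBF (1.04, SE 0.15), against 0.02 (difference 1.02, adjusted p = 0.0125), and CESA1 and CESA8 lay above WT by 0.97 and 0.78. The stages did not overlap in fst for any of these 4 genes, and their calls of a difference held with any 1 array left out. In each of them M5D array 3 was the highest. CESA3 did not pass the test in fst (0.16, adjusted p = 0.429), and its difference from WT (0.67, adjusted p = 0.0464) was lost in 10 of the 12 fits that left out 1 array. The laccases LAC10 and LAC19, a family known for lignin polymerization, rose by 2.67 and 3.66, while Os4CL2, a ligase of phenylpropanoid synthesis, fell to 7.72, 8.59 and 11.7 in M5D, against 134, 122 and 105 in MBF (-3.70, SE 0.22).

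Expansins and xyloglucan enzymes moved both ways, with 12 of 30 genes higher and 10 lower. Besides the falls of EXPA32 and EXPB2 (-4.94) and the rise of EXPB7, EXLA4, an expansin-like gene, gave 574, 738 and 789.5 in M5D and 18.2, 40.1 and 28.4 in MBF (log2 change 4.66, SE 0.23, adjusted p = 3.55e-09), more than in WT (2.61, adjusted p of the difference 0.00271). EXPA5, by contrast, rose by 0.92 in fst and 2.30 in WT (difference -1.38, adjusted p = 0.00145), with 555, 442 and 476 in M5D and 229, 283 and 267 in MBF.

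Among hormone genes, the deepest fall was in gibberellin synthesis. KAO, which oxidizes ent-kaurenoic acid, gave 23.7, 32.2 and 34.1 in M5D and 2001, 1705 and 1231 in MBF (log2 change -5.77, SE 0.26, adjusted p = 1.82e-09), and CPS1, which makes ent-copalyl diphosphate, gave 51, 57.5 and 81.1 in M5D and 1379.7, 1384 and 1137 in MBF (-4.39, SE 0.21). Neither fall differed past the test from that in WT (-6.43 and -4.82). Of 12 gibberellin genes 5 rose and 5 fell. In the jasmonate list, where 9 of 35 genes rose and 8 fell, the repressor genes JAZ9 (-4.66) and JAZ13 (-3.02) fell, as did JAR1 (-2.73), which conjugates jasmonate to isoleucine, while the reductase gene OPR5 rose by 2.94. ACO1, the last enzyme of ethylene synthesis, gave 239.9, 89.5 and 121 in M5D and 1635, 1729.8 and 2065 in MBF (-3.71, SE 0.32). ABA8OX2, which breaks down abscisic acid, fell by 1.89, and PP2C68, a phosphatase of abscisic acid signalling, rose by 2.06. RR41, named as a response regulator of cytokinin signalling, rose to 2639, 2766 and 2741 in M5D, against 213, 174 and 288 in MBF (3.62, SE 0.17, WT 3.12). As lists, 5 of 31 cytokinin genes rose and 9 fell, 6 of 20 abscisic acid genes rose and 6 fell, and 4 of 11 ethylene genes rose and 3 fell. Over all genes 28.8% rose and 17.4% fell, and several of these lists were near those shares, such as jasmonate with 25.7% and 22.9%.

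Of 59 auxin genes, 18 were higher (30.5%) and 15 lower (25.4%), against 28.8% and 17.4% of all genes (median log2 change 0.06, WT -0.31). The carrier genes PIN5A and PIN4 rose, PIN5A to 233, 262 and 379 in M5D, against 22.8, 27 and 26.3 in MBF (3.50, SE 0.18), and PIN4 by 1.79. The GH3 genes GH3.1 (-2.29), GH3-8 (-2.18) and GH3.4 (-1.55), whose products conjugate auxin to amino acids, fell. Aux/IAA repressors went both ways: IAA31 fell by 2.50, whereas IAA8 gave 354, 401 and 499 in M5D and 58.7, 48 and 62.1 in MBF (2.89, SE 0.18, adjusted p = 6.14e-08), above its change in WT (0.98, adjusted p of the difference 0.00112). IAA14 rose by 0.74 in fst and fell by 1.21 in WT (difference 1.95, adjusted p = 0.000382), with 330.2, 272 and 338 in M5D and 179, 215 and 167 in MBF. ARF3, an auxin response factor gene of the pistil, rose by 1.07, against 0.19 (adjusted p of the difference 0.00299). In all, 10 auxin changes lay above and 2 below those of WT, against 6.37% and 4.19% of all genes. Of the calls above WT, those of IAA8, IAA14, IAA18, IAA10 and ARF3 held with any 1 array left out. Those of IAA30, ARF1, arf1 and an IAA20 gene were each lost in 10 of the 12 fits that left out 1 array, and that of ARF22 in 6. Below WT, the call of ARF13 was lost in 8 such fits.

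Nutrient and water transport genes had large changes in both directions. Of 8 ammonium transporter genes 3 rose and 1 fell, with AMT3-2 at 800.3, 967 and 693 in M5D and 82.5, 139.9 and 122 in MBF (log2 change 2.86, SE 0.24, WT 2.63), and a rise of AMT3-3 by 2.31. NRAMP5, which takes up manganese and cadmium, rose in fst, with 2175, 1988 and 2226 in M5D and 943, 880.4 and 1119 in MBF (1.12, SE 0.14), and changed by -0.77 in WT (difference 1.9, adjusted p = 0.000162). The nicotianamine synthase genes NAS1 and NAS2, which make a metal chelator, did not pass the test in fst (-0.41 and -0.14), against rises of 2.25 and 2.45 in WT (adjusted p of the difference 0.00805 and 0.00498). Over the 50 transporters of amino acids, nitrate, ammonium and metals, 20 rose and 8 fell. Of 26 water channel genes, 8 rose and 8 fell (30.8% each), against 28.8% and 17.4% of all genes. OsPIP1;3 of the plasma membrane rose to 2328, 2169 and 2060.4 in M5D, against 125, 116 and 199 in MBF (3.94, SE 0.27, WT 3.82), and OsTIP2;1 of the tonoplast fell to 164, 246 and 173, against 3891, 3281 and 3073 in MBF (-4.15, SE 0.23, WT -4.87).

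In several lists of senescence, defence and growth, more genes rose than fell. Of 8 NAC factor genes, 6 rose and 1 fell (median log2 change 0.99), with NAC45 at 124, 124 and 176 in M5D and 23.4, 27.4 and 30.1 in MBF (2.38, SE 0.21). Of 6 WRKY genes, 4 rose, a count that was 2 without M5D array 1, without M5D array 2 or without MBF array 1. The WRKY76 rise (1.77, SE 0.52, adjusted p = 0.0206) came from overlapping arrays, with 162, 187 and 57.9 in M5D and 29.2, 16.9 and 89.1 in MBF. STAY-GREEN (SGR) and RCCR1, which act in chlorophyll breakdown, rose by 1.34 and 1.19, SGR with 359, 370.4 and 349.8 in M5D and 119.8, 131 and 184 in MBF. Among 15 defence protein genes, 9 rose and 3 fell: the chitinase genes Cht11 (3953, 4435 and 4469 in M5D, and 768, 715 and 584 in MBF) and Cht2 both rose by 2.64, in contrast to Cht7. Another Cht2 probe set rose by 2.47. A further one, with 436, 4317 and 2347 in M5D and 575, 651 and 630 in MBF, did not pass the test (1.41). Ribosomal protein genes rose slightly, 10 of 20 with none lower (median 0.30, WT 0.32), and photosynthesis genes were nearly level, with 1 of 6 lower.

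**Figure D4:**
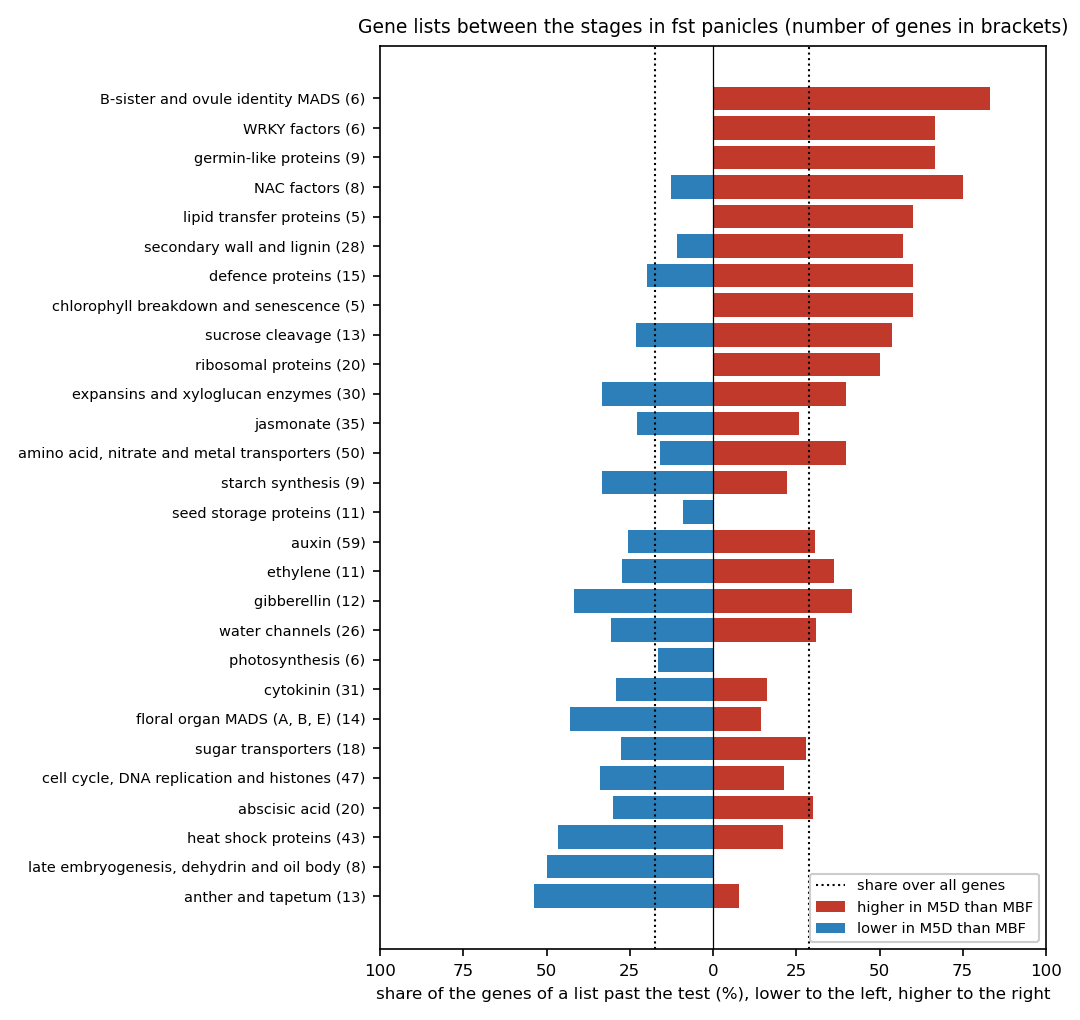
Share of the genes of each list that were lower (bars to the left) or higher (bars to the right) in M5D than in MBF by limma's adjusted p, in percent, with the number of genes in brackets and the shares over all 17905 genes as dotted lines. The list of ovule MADS genes reaches 83.3% higher, and the anther and tapetum list 53.8% lower; lists of 5 or more genes are shown.

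Set against WT, most of the deep falls of fst were found in both genotypes. In WT 970 probe sets (1.69%) rose and 1180 (2.06%) fell at least 4-fold, or 553 (3.09%) and 710 (3.97%) of the genes. The 993 probe sets that fell at least 4-fold in both genotypes were 82.8% of those in fst and 84.2% of those in WT, and the 412 that rose at least 4-fold in both were 58.5% of those in fst and 42.5% of those in WT. Of the 970 WT risers, 670 were also called higher in fst, 11 lower and 289 neither. Of the 1180 WT fallers, 1151 were also called lower in fst, 4 higher and 25 neither. The correlation of the fst change with the WT change was r = 0.833 over probe sets, and these do not count as replicates. The difference of the changes itself passed the test for 2062 probe sets above WT (3.6%) and 1574 below (2.75%), of which 72 (0.126%) and 319 (0.557%) differed at least 4-fold, or 43 (0.24%) and 154 (0.86%) of the genes. The named genes closest to their change in WT were SAPK8 (-0.70 in both), OsPP2C09 (0.80 and 0.78), SGR, SS2 and MST5.

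**Figure D5:**
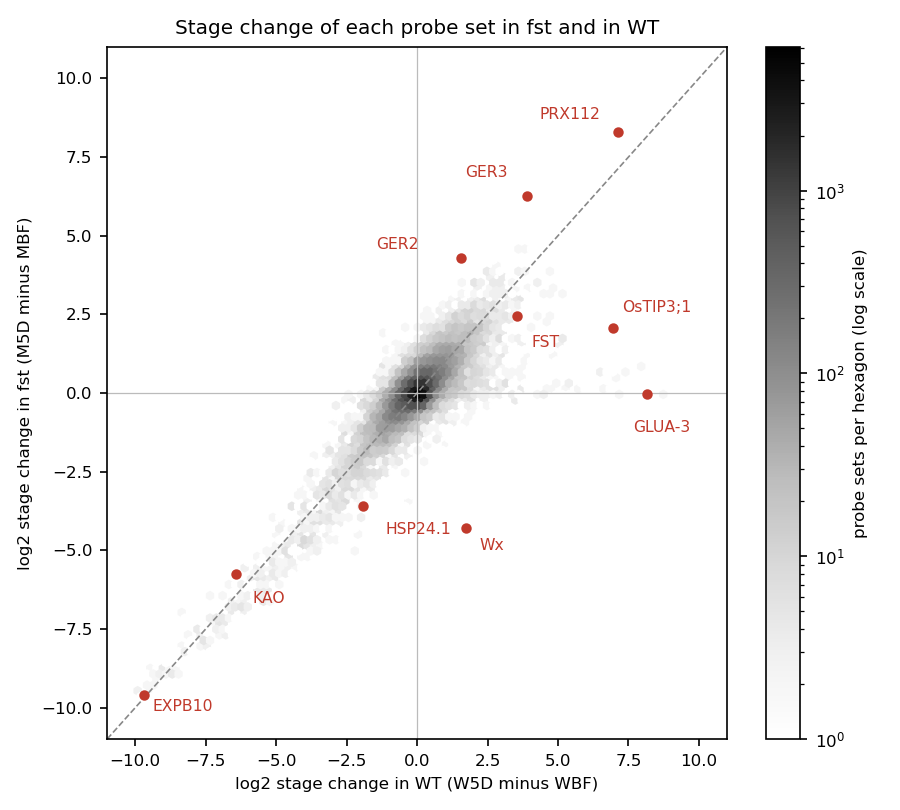
Log2 change of each of 57258 probe sets in fst (M5D minus MBF, vertical axis) against that in WT (W5D minus WBF, horizontal axis), as the number of probe sets per hexagon on a log grey scale, with 10 genes marked. EXPB10 lies close to the dashed line of equal change at -9.61 in fst, GER2 above it at 4.28, and GLUA-3 far to the right of it at -0.02.

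Some genes ran in opposite directions in the genotypes: 127 probe sets fell in fst and rose in WT, and 180 rose in fst and fell in WT, each with both changes and their difference past the test. Among the largest differences was LOC9267054, annotated to the 26S proteasome, which gave 23.5, 20 and 13.8 in M5D and 73.1, 84.5 and 156 in MBF (log2 change -2.40, SE 0.34, adjusted p = 0.000113) and rose by 2.20 in WT (difference -4.60, adjusted p = 0.000138). LOC4342715, annotated as a Nudix hydrolase, gave 117, 105 and 89.9 in M5D and 246, 265 and 209 in MBF (-1.21, SE 0.30), beside 2.19 in WT (difference -3.40). In the other direction, LOC4346741, annotated as OsRPN1b, a regulatory subunit of the 26S proteasome, gave 116, 58.9 and 129 in M5D and 25.4, 33 and 16.3 in MBF (2.0, SE 0.29, adjusted p = 0.000165), beside -1.25 in WT (difference 3.25, adjusted p = 0.000681). The brighter probe set of this gene gave 0.49 in fst (adjusted p = 0.107), -0.62 in WT and a difference of 1.11, so the opposite directions rest on the dimmer one. By the probe sets that gave the larger differences, the stages of both proteasome genes did not overlap in fst, which was a condition of their choice. By the same probe sets, the genotypes already differed before flowering. The means were 104 in MBF and 25.5 in WBF for LOC9267054, and 24.9 in MBF and 130.4 in WBF for LOC4346741. LOC4328189, annotated as a polygalacturonase, rose by 0.62 in fst (adjusted p = 0.0185) and fell by 2.11 in WT, and the rise in fst lost its call without M5D array 1 (0.43) or MBF array 3 (0.58). SAM2, a gene of S-adenosylmethionine synthesis, was the only named gene whose probe sets were called in opposite directions: 1 gave 61.5, 20.8 and 14.3 in M5D and 1135, 1061 and 899 in MBF (-5.29, SE 0.41), and the other, brighter one gave 4501, 4292 and 3294 in M5D and 1341, 1421 and 1095 in MBF (1.64, SE 0.13). The difference from WT was -3.68 by the dimmer probe set and 0.39 (adjusted p = 0.243) by the brighter one.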

How the data were processed

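Panicles were measured on Affymetrix Rice GeneChips. The deposited values are intensities that the authors made with RMA in Affymetrix Expression Console (versions not given in the sources used here). They are on a linear scale and are called signals. After a log2 transform, group means were estimated for 57258 probe sets (123 control probe sets left out) over all 12 arrays with limma 3.58.1 in R 4.3.3 (8 residual degrees of freedom, eBayes, Benjamini-Hochberg over all probe sets, threshold 0.05). The difference between the fst and WT stage changes was tested as a contrast of the same fit.

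Of the probe sets, 22436 had 1 gene in the annotation, 95 several and 34727 none. In counts and lists, each of 17905 genes was represented by its brightest probe set. Only 2452 genes carried a name, so a list can miss members. The lists (32, with 565 genes) were matched by name or description, and members and lists were chosen with earlier results of these data known. Named genes were the B_sister and ovule genes, the 10 largest rises and falls, and the 3 largest changes in each direction of each list past the test. The 5 largest differences from WT in each direction and the 5 changes closest to WT were also named. The largest rises, falls and differences (1 probe set per gene) came from probe sets past the test with 1 gene and a name or description. Separate M5D and MBF arrays and a mean signal of at least 100 in M5D or MBF were further conditions. Descriptions were those of the study's lists of genes changed in fst. The alternatives were quantile normalization again, centring, a filter on dim probe sets, removal of cross-hybridizing probe sets, array weights, eBayes with trend and robust, the fst arrays alone, a replicate block, a threshold of 0.01 and leaving out each array. The fit was tested on simulated data.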

Additional observations from a re-analysis of the deposited data

Results flagged for a closer look

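Of the 154 genes named by the rule in the methods, the following 34 had a stage change in fst that differed from that in WT by limma's test of the difference (fst change minus WT change, log2 scale), in 3 arrays a group. Genes mentioned above for other reasons are not in this list, and some differed by more, such as GLUB-5 (-8.64) and GLUA-3 (-8.20). Below WT lay Wx (-6.0), OsTIP3;1 (-4.90), LOC9267054 (-4.60), LOC4325437, annotated as a glutathione S-transferase (-3.90), SAM2 (-3.68), LOC4342715 (-3.40), LTP-2 (-2.57), RR33 (-2.13), SUS3 (-2.04), HSP24.1 (-1.66), HSP17.9A (-1.58), MCM3 (-1.44), CAD7 (-1.35), HSP18.0 (-1.26), SIP2-1 (-1.17), OsMCM6 (-1.17), FST (-1.09), RAB16D (-1.09) and YSL8 (-0.89). Above WT lay OsMADS3 (0.73), PRX112 (1.16), HSF01 (1.17), RAFTIN1 (1.19), SWEET15 (1.34), HSF05 (1.62), SUS5 (1.70), IAA8 (1.91), EXLA4 (2.05), GER1 (2.11), GER3 (2.37), LOC4341600, annotated as a lipase (2.70), LOC4328189 (2.73), GER2 (2.73) and LOC4346741 (3.25). LOC4325437 gave 379.8, 474 and 331 in M5D and 62.8, 47.3 and 45.4 in MBF and rose in both genotypes, by 2.93 in fst and 6.82 in WT. LOC4341600 gave 6.95, 9.83 and 8.39 in M5D and 243, 409 and 116 in MBF and fell in both, by 4.77 in fst and 7.47 in WT. The values of SAM2 and LOC4346741 come from the dimmer of their probe sets. The brighter one gave 0.39 (adjusted p = 0.243) for SAM2 and 1.11 for LOC4346741. Other probe sets of HSP18.0 (-0.20 and 0.20) and PRX112 (0.15) showed no difference past the test.

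With each of the 12 arrays left out in turn, the call of a difference was lost without 1 or more arrays for RR33 (9 of 12), PRX112 (9), HSF01 (9), OsMCM6 (9), RAFTIN1 (10), SWEET15 (6), YSL8 (6), SUS5 (3) and SIP2-1 (3), with adjusted p of up to 0.0983 (RR33). It was kept in all 12 fits for the other 25 genes. For SUS5 the arrays were MBF 1, W5D 2 and WBF 1, and for SIP2-1 they were M5D 3, W5D 1 and WBF 1.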

How the results depend on the processing

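The counts of probe sets higher, lower and at least 4-fold changed in fst stayed within 1.5 times of their values under every alternative run, at 10700 to 17877 for all calls against 15297. The difference from WT was less stable. A threshold of 0.01 left 1206 of 3636 calls, 588 above WT and 618 below. With 1 array left out the range was 2159 to 3709, 1114 to 2110 above and 1045 to 1645 below, each lowest without WBF array 1; without W5D array 3 it was 2291 in all. Calls above WT were also over 1.5 times fewer without MBF array 1 (1318), W5D array 2 (1355), W5D array 3 (1215) or WBF array 2 (1344). Centring the arrays on 1 median moved the share of calls that were higher to 65.0%, against 58.3%. Array weights were lowest for M5D array 3 (0.309). Correlations of deviations between M5D and MBF arrays of the same replicate number were -0.01, -0.10 and 0.02, and those of unlike numbers ran from -0.10 to 0.13. Deviations from a mean of 3 arrays are tied to each other, so these values cannot tell whether replicate numbers paired the stages. The replicate block gave 14339 calls with no change among the named genes. No named change reversed; 8 lost a call under some alternative (BZIP52, WRKY76, ETR4, Cht10, NAC068, CIN3, LOC4328189 and RR33), and OsMADS3 gained one under the filter on dim probe sets. Leaving out arrays for lists and for named differences was chosen after seeing the data. The 3 pools a group limit the precision, and 34727 probe sets have no gene.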
